A study of Mus musculus with 3 samples.

Results

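This report describes 10 genes by which macrophages and their lysosomes are commonly recognised, Adgre1, Cd68, Lyz2, Ctsb, Ctsd, Ctsl, Ctss, Lamp1, Mrc1 and Gpnmb, in single cells of mouse peripheral blood (PB). They were listed by name, no measured value being part of the rule, but with earlier results of these data known, and all 10 are among the 32285 genes counted. The blood came from wild type Balb/C mice, females by the study's methods, that were either naive or engrafted with BBC2 SCLL cells. BBC2 is a pro-B-like leukemia line driven by a BCR-FGFR1 fusion, and blood was taken at D11 (day 11, intermediate disease) and D14 (day 14, late disease). Red cells were lysed and dead cells removed in all 3 groups, and each group is 1 library, the number of mice in it not being given in the sources used here. Every difference between naive, D11 and D14 is therefore a difference between 3 libraries, with no replicate and no test, and the effect of leukemia and that of the library cannot be told apart. Intervals in brackets are 95% intervals for counting error only.

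Monocytes circulate in blood as classical monocytes (cMono), which carry Ly6c2 and Ccr2, and as non-classical monocytes (ncMono), which patrol the vessel wall and depend on Nr4a1. Macrophages are the tissue-resident phagocytes. They share many genes with monocytes, among them Adgre1, which encodes the surface receptor F4/80, Cd68, a glycoprotein of late endosomes and lysosomes, and Lyz2, the lysozyme that cleaves bacterial cell walls. The lysosome breaks down engulfed material with cathepsins, which are cysteine proteases (Ctsb, Ctsl, Ctss) or an aspartic protease (Ctsd), behind a membrane lined by Lamp1. Mrc1, the mannose receptor CD206, and Gpnmb, a transmembrane glycoprotein of lipid-laden phagocytes, mark more mature or activated macrophages. The question was which of these genes ncMono in these libraries carried, and at what level.

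The counts are unique molecular identifiers (UMIs), 1 for each captured RNA molecule. The libraries held 5386 to 9337 barcodes and 30362408 to 65861863 UMIs, and 3811 naive, 4567 D11 and 4414 D14 barcodes passed the filters of 200 or more genes and no more than 10% mitochondrial UMIs. The D11 library stood apart by its red cell RNA, since hemoglobin genes took 55.9% of its UMIs against 11.2% in the naive and 22.5% in the D14 library. Any 2 libraries had 3 to 5 kept barcode sequences in common. Cells were classed by marker gates that hold none of the 10 genes. A barcode was ncMono-like with at least 3 of 7 markers (Ace, Treml4, Cd300e, Adgre4, Eno3, Pparg, Ear2), cMono-like with at least 3 of 6 (Ly6c2, Ccr2, F13a1, Vcan, Fn1, Ms4a4c), and left out as mixed when it passed gates of 2 classes. This gave 128, 195 and 617 ncMono-like and 136, 190 and 66 cMono-like cells in naive, D11 and D14, in that order. The median ncMono-like cell held 7856.5, 7904 and 9189 UMIs and the median cMono-like cell 12700, 13072 and 20561.5. Levels below are UMIs summed over the cells of a class and given per 1000000 UMIs of that sum (CPM), and for 3′ counts such as these gene length does not enter.

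Genes that no gate used were read as a check of the 2 names. Of 8 genes known from ncMono (Nr4a1, Cx3cr1, Spn, Pou2f2, Fcgr4, Cd300ld, Stap1, Ceacam1), 7 in naive, 8 at D11 and 8 at D14 exceeded the cMono-like level by at least 2-fold in ncMono-like cells, with median log2 ratios of 2.72, 2.81 and 2.75. The 7 genes known from cMono (S100a4, Plac8, Ifi27l2a, Mgst1, Hopx, Ly6c1, Plcb1) were at least 2-fold lower in 7, 6 and 5 cases, with medians of -2.02, -1.89 and -2.53. Nr4a1, for example, stood in ncMono-like cells at 391, 449 and 539.5 CPM, against 65.0, 81.0 and 104 CPM in the cMono-like cells of naive, D11 and D14. Fcgr4, a receptor for IgG, had an ncMono-like level of 404, 428 and 1171 CPM. The sides of these genes matched the names of the 2 classes. The study lists Cd300ld, Fcgr4 and Pou2f2 for ncMono, and Hopx, Ly6c1, S100a4 and Plcb1 for cMono, from these same data. It also names Nr4a1 and Cx3cr1 among the markers that these ncMono express. For all of those genes the match is no independent check. The remaining check genes were also chosen with earlier results of these data known.

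Adgre1 lies on chromosome 17 (57358691 to 57483527, plus strand, GRCm38). In ncMono-like cells it was at 248 CPM (218 to 280.1) in naive, 346 (318 to 375) at D11 and 443 (427 to 460.2) at D14. The 3 intervals do not overlap, and the D14 level was 1.79-fold the naive one (1.57 to 2.04). In cMono-like cells the levels were 121, 159 and 112 CPM, below the ncMono-like level of each library. The ratio of ncMono-like to cMono-like cells was 2.05 (1.70 to 2.48) in naive, 2.17 (1.91 to 2.47) at D11 and 3.94 (3.35 to 4.67) at D14. Neutrophil-like cells had 29.1, 27.7 and 11.1 CPM, B-like cells 8.34 and 9.46 CPM in naive and D11, and T-like cells 0.44, 0 and 0 CPM. The order ncMono-like, cMono-like, neutrophil-like held in each library with intervals that did not overlap.

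Cd68 lies on chromosome 11 (69664213 to 69666153, minus strand). Its levels in the 2 monocyte classes lay close together. Its ncMono-like levels were 226, 231 and 142 CPM and its cMono-like levels 196, 200.3 and 148 CPM, in naive, D11 and D14. The ratio between the classes was 1.15 (0.972 to 1.37), 1.15 (1.005 to 1.32) and 0.960 (0.822 to 1.12). Both classes were lowest at D14. In ncMono-like cells Cd68 was 0.626-fold the naive level at D14 (0.541 to 0.727), the opposite direction to Adgre1 in the same cells, and in cMono-like cells 0.753-fold (0.629 to 0.899). Neutrophil-like cells had 45.4, 36.0 and 18.5 CPM, and B-like, T-like and NK-like cells at most 8.09 CPM.

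Lyz2 lies on chromosome 10 (117277331 to 117282321, minus strand) and was the most abundant of the 10 genes by UMIs in both monocyte classes. It was a classical monocyte gene here. In cMono-like cells it stood at 26013 CPM in naive, 22125 at D11 and 13257 at D14, and in ncMono-like cells at 6022, 5437 and 3595 CPM. The ncMono-like level was 0.232-fold the cMono-like one in naive, 0.246-fold at D11 and 0.271-fold at D14, with counting intervals within 0.225 to 0.277. The processing moved these ratios by more than counting error in 7, 8 and 8 of 12 other settings. On the log2 scale they ran from -2.30 to -1.85 in naive, -2.26 to -1.69 at D11 and -2.04 to -1.69 at D14. Both monocyte classes were lowest at D14, at 0.597-fold in ncMono-like cells (0.580 to 0.614) and 0.510-fold in cMono-like cells (0.501 to 0.519) at D14 over naive. The difference was also seen in the middle of the cells, since the median ncMono-like cell had 50.7, 46.1 and 26.8 Lyz2 UMIs per 10000. Neutrophil-like cells went the other way, from 1640.2 CPM in naive to 3892 at D11 and 4284 at D14, a 2.61-fold difference (2.54 to 2.69), so that at D14 they were above ncMono-like cells. Lymphocytes had at most 24.3 CPM. Lyz1, the near-identical paralog, had 1, 3 and 6 UMIs in the ncMono-like cells of the 3 libraries. How reads that fit both genes were counted is not given in the sources used here.

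**Figure D1:**
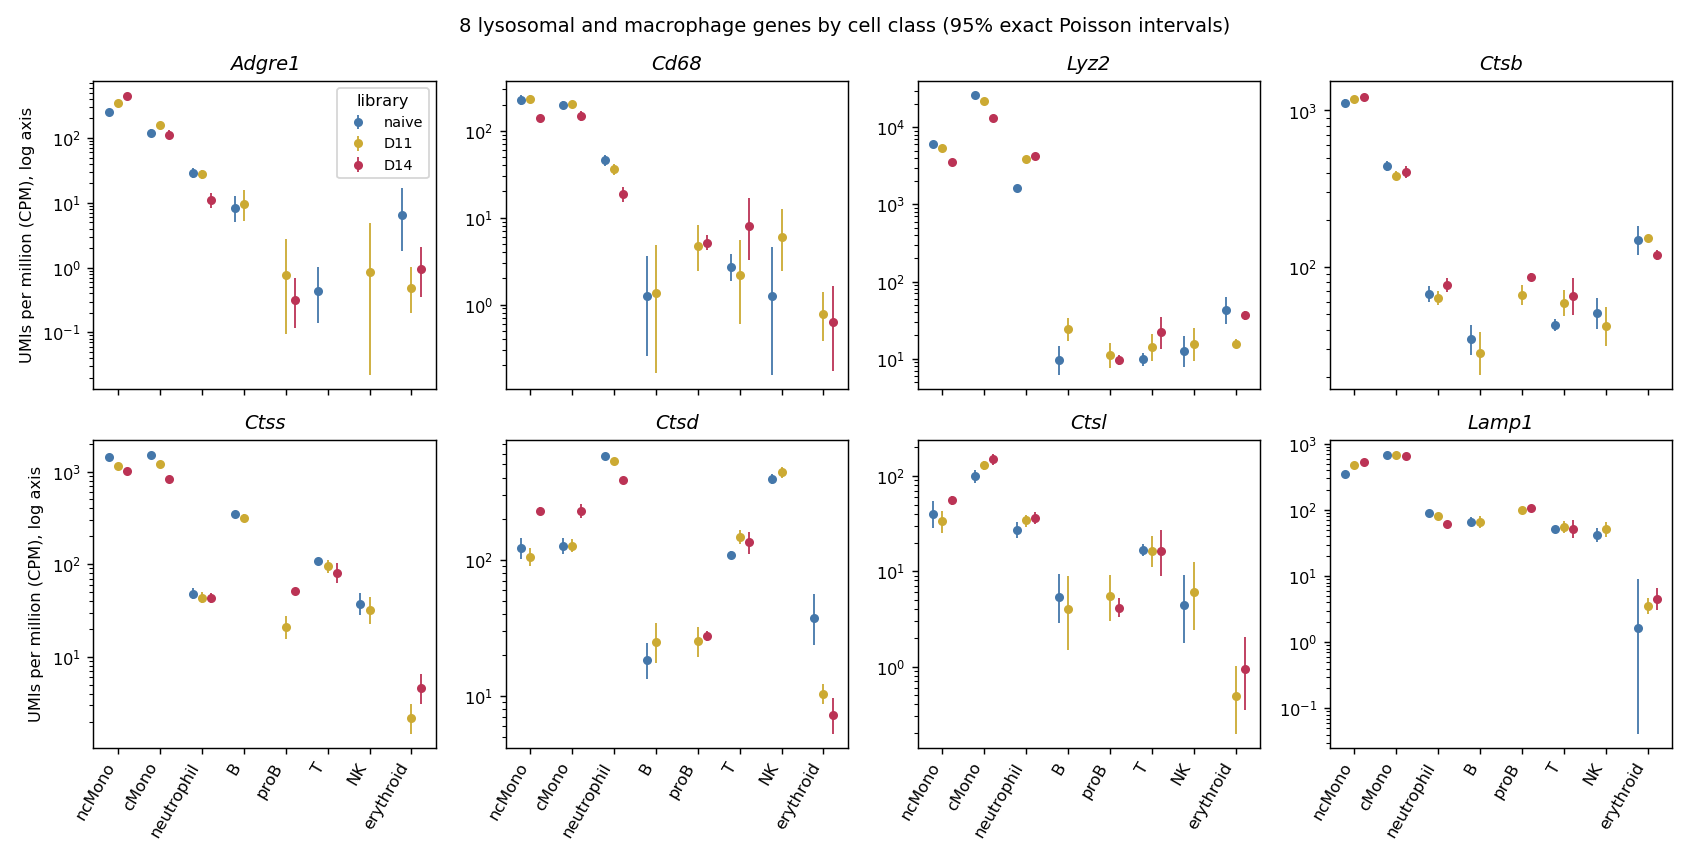
Level of 8 of the genes in CPM (y axis, log scale) by cell class (x axis) and library (colour), with exact Poisson 95% intervals as bars. Sums with 0 UMIs cannot be drawn on a log axis and are left out, as are classes of fewer than 50 cells. Adgre1 and Ctsb are highest in ncMono-like cells, Lyz2, Ctsl and Lamp1 in cMono-like cells, and Ctsd in neutrophil-like cells. Most erythroid-like UMIs are hemoglobin, which lowers the CPM of other genes in that class.

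Mrc1 (chromosome 2, 14229392 to 14332057, plus strand) and Gpnmb (chromosome 6, 49036546 to 49070929, plus strand) were at or next to 0 in ncMono-like cells. Mrc1 had 1, 0 and 2 UMIs in the 128, 195 and 617 ncMono-like cells, which is 0.98 CPM (0.02 to 5.43), 0 and 0.33 CPM (0.04 to 1.18). Gpnmb had no UMI in any of the 940 ncMono-like cells. This allows a share of cells with a UMI of up to 2.34% in naive, 1.54% at D11 and 0.486% at D14. With the 3 libraries pooled, which are different conditions, the limit is 0.319%. In cMono-like cells Gpnmb was also at 0 UMIs in the 3 libraries. Its few UMIs in named classes were elsewhere, 11 in naive T-like cells, 4 in 1 neutrophil-like cell at D11 and 2 in proB-like cells at D14.

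Mrc1 was not absent from the blood. The naive cMono-like cells held 54 UMIs, 31.3 CPM (23.5 to 40.9), in 17 of 136 cells, and 5 of those cells held 64.8% of the UMIs. At D11 the cMono-like cells held 10 UMIs (4.07 CPM) in 4 cells and at D14 1 UMI (0.73 CPM). The D11 level was 0.130-fold the naive one (0.059 to 0.258). Cells of the proB-like class, which carry Vpreb1, Igll1, Dntt or Rag genes and of which the naive library held 1, had 28 Mrc1 UMIs in 86 cells at D11 (10.9 CPM, 7.22 to 15.7) and 181 in 602 cells at D14 (9.65 CPM, 8.29 to 11.2). At D14 those UMIs were spread over 107 cells, with 20.4% in the top 5. The proB-like level of Mrc1 was above that of ncMono-like cells in both engrafted libraries, while Adgre1 there was at 0.78 and 0.32 CPM.

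Among the cathepsins, Ctsb separated the monocyte classes most toward ncMono. It encodes a cysteine protease and lies on chromosome 14 (63122462 to 63145923, plus strand), overlapping the end of Fdft1 on the other strand. The ncMono-like levels were 1111 CPM (1047 to 1177), 1176 (1125 to 1228) and 1226 (1199 to 1254) in naive, D11 and D14. The cMono-like levels were 442, 383 and 404 CPM. The ratio was 2.51 (2.29 to 2.76), 3.07 (2.84 to 3.32) and 3.04 (2.78 to 3.32). Between libraries Ctsb hardly moved, with 1.10-fold the naive level at D14 in ncMono-like cells (1.04 to 1.18) and 0.913-fold in cMono-like cells (0.817 to 1.02). Cells rich in hemoglobin ranked next, with 149, 155 and 119.7 CPM of Ctsb in the erythroid-like class. Neutrophil-like cells were below, at 67.5, 63.9 and 76.8 CPM. Hemoglobin took 86.6%, 90.3% and 88.0% of the erythroid-like UMIs, which lowers the CPM of every other gene in that class. Of erythroid-like barcodes, 68.2%, 71.4% and 42.7% had a Ctsb UMI, against 15.2%, 11.2% and 15.2% with a Lyz2 UMI.

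Ctss, which trims the invariant chain for antigen presentation, lies on chromosome 3 (95526786 to 95556403, plus strand). It was shared by both monocyte classes. The ncMono-like levels were 1448, 1139.7 and 1016 CPM and the cMono-like levels 1507, 1194 and 836 CPM. The classes overlapped in naive and D11, with ratios of 0.961 (0.901 to 1.02) and 0.955 (0.901 to 1.01), and at D14 the ncMono-like level was 1.21-fold the cMono-like one (1.14 to 1.29). Both classes were lower in each engrafted library than in naive, down to 0.701-fold in ncMono-like cells (0.663 to 0.743) and 0.555-fold in cMono-like cells (0.517 to 0.595) at D14. Ctss is also expressed by B cells, and B-like cells had 353 CPM in naive and 315 CPM at D11. The proB-like cells had 21.0 CPM at D11 and 51.7 at D14.

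Ctsl, on chromosome 13 (64359337 to 64370890, minus strand), was a low gene and a classical one. It stood at 40.0, 33.3 and 55.5 CPM in ncMono-like cells, from 41, 57 and 339 UMIs, and at 99.2, 129 and 149.8 CPM in cMono-like cells. The ncMono-like level was 0.403-fold (0.279 to 0.569), 0.258-fold (0.191 to 0.342) and 0.370-fold (0.310 to 0.443) the cMono-like one. In naive the ncMono-like interval (28.7 to 54.2 CPM) overlapped that of neutrophil-like cells (22.2 to 32.7 CPM). At D14 both monocyte classes were above naive, by 1.39-fold (1.001 to 1.97) and 1.51-fold (1.23 to 1.86). Gm47123 is annotated antisense to Ctsl, and the strand setting of the counting is not given in the sources used here.

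Ctsd, the aspartic protease, lies on chromosome 7 (142375911 to 142388038, minus strand). The protein-coding gene Gm49369 (142371096 to 142382667) overlaps its end on the same strand and is not among the genes counted. The part of Gm49369 in the Ctsd counts was not tested. Ctsd was not a monocyte gene first. Neutrophil-like cells had the most, 576, 532 and 383 CPM, followed by NK-like cells with 389 CPM in naive and 437 at D11. In the ncMono-like cells it was at 121, 105 and 229 CPM, in cMono-like cells at 127, 127 and 228 CPM, and in T-like cells at 109, 147 and 134 CPM. In naive the intervals of the 2 monocyte classes and of T-like cells overlapped. The ncMono-like level at D14 was 1.89-fold the naive (1.58 to 2.29) and 2.17-fold the D11 level (1.86 to 2.55), and in cMono-like cells D14 was 1.81-fold naive (1.51 to 2.16). Neutrophil-like cells moved the other way, to 0.665-fold (0.626 to 0.707). The 8 neutrophil gate genes, all 8 detected, summed to 1830 CPM in naive, 1450 at D11 and 706 at D14 in ncMono-like cells. Of these sums 1658, 1284 and 581 CPM were S100a8 and S100a9. In cMono-like cells the 8 genes summed to 2223, 1431 and 6491 CPM, highest at D14. Here too most of each sum, 1957, 1284 and 6242 CPM, was S100a8 and S100a9. The 5 progenitor gate genes (Cd34, Kit, Mpo, Prtn3, Elane) were also highest there at D14, at 18.6, 81.8 and 165 CPM. Whether the D14 cMono-like cells differed in make-up from the naive ones was not tested. Nor was the part of either set in the ncMono-like or cMono-like values of any gene.

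Lamp1, on chromosome 8 (13159161 to 13175338, plus strand, its end overlapping Grtp1 on the other strand), coats the lysosomal membrane. It was higher in cMono-like cells at 674, 682 and 649.9 CPM, and its D14 level was 0.964-fold the naive one (0.882 to 1.05). In ncMono-like cells it was at 347 CPM (312 to 385), 473 (441 to 506) and 533 (515 to 552), with 3 intervals that do not overlap. The ratio of ncMono-like to cMono-like cells went from 0.515-fold (0.456 to 0.580) in naive to 0.694-fold (0.637 to 0.755) at D11 and 0.820-fold (0.761 to 0.885) at D14. Other classes had at most 106 CPM, which was the proB-like level at D14.

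The promoters of Lamp1 and Ctsd carry the E-box (CACGTG) by which the lysosomal regulator TFEB and its relatives are known to bind. The bases upstream of the start site are shown for these 2 genes from the RefSeq promoter table (GRCm38.p6), written 5′ to 3′ on the strand of the gene. Capitals mark the E-box and, where it is there, the T or A that extends it to the CLEAR core TCACGTG read on either strand.
Lamp1, chr8:13158911-13159160, plus strand: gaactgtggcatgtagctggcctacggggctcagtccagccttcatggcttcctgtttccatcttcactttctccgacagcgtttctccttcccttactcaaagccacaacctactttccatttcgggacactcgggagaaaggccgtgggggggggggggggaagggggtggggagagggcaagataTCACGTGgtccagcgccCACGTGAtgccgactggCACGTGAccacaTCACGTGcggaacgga
Ctsd, chr7:142387828-142388077, minus strand: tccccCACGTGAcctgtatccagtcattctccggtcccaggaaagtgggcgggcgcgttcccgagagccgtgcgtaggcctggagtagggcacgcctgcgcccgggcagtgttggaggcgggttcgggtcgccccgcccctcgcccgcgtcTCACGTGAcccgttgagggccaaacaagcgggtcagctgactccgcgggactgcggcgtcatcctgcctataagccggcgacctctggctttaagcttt
The Lamp1 window holds 4 E-boxes, the nearest starting 15 bases before the start site, and all 4 are extended to a CLEAR core. The Ctsd window holds 2, starting 98 and 245 bases before, both extended, and part of it lies within the longer Ctsd gene of the GENCODE annotation. Promoters were matched for 8 of the 10 genes, and an E-box was found in 3 of these, the third being Ctsl. Of the 32851 promoters of 300 bases that RefSeq lists, 7.15% hold an E-box, 3.77% a CLEAR core, which always includes an E-box, and 0.0244% at least 4 E-boxes. A PU.1 site spelled GAGGAAG, searched on both strands, was found in Ctss and Mrc1 and in 13.6% of all promoters. A match describes the letters only, and no link between these sites and the levels was tested.

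Set against all genes, the genes that could be counted lay on both sides between ncMono-like and cMono-like cells. The count took every gene that averaged 50 CPM or more over the 2 sums compared and called a 2-fold difference after 1 CPM was added. A gene can thus pass through 1 of the 2 sums alone, as Ctsl did through its cMono-like level in naive and D11. Of the 8 genes measured so (Mrc1 and Gpnmb were below the minimum), Adgre1 and Ctsb, 2 genes, had an ncMono-like level at least 2-fold above the cMono-like one in each library, and Lyz2 and Ctsl, again 2, one at least 2-fold below it. Of all genes, 10.9% were called higher and 8.79% lower in naive, 10.2% and 6.36% at D11, and 13.1% and 9.78% at D14. The median log2 ratio of the 8 genes was -0.06, -0.17 and -0.03, beside 0.14, 0.10 and 0.18 over all genes. With 8 genes chosen by name and no test, these values do not show whether the set leans to either class. The naive call of Adgre1 lay next to the limit, at a log2 ratio of 1.04 (0.77 to 1.31), and was not made under 7 of the 14 alternatives.

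**Figure D2:**
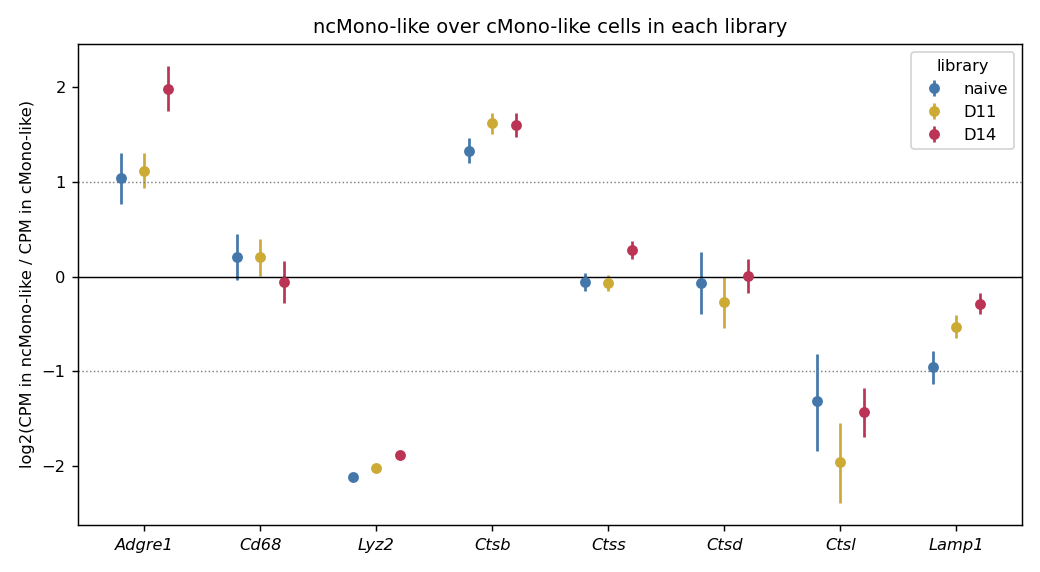
Log2 ratio of the CPM in ncMono-like cells to that in cMono-like cells (y axis) for 8 genes (x axis) in each library (colour), with exact conditional binomial 95% intervals. Dotted lines mark a 2-fold difference. Adgre1 and Ctsb lie above 1 and Lyz2 and Ctsl below -1 in the 3 libraries, while Cd68, Ctss and Ctsd lie near 0.

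Between libraries, none of the measured genes was called 2-fold different from naive in either monocyte class under the main setting. In ncMono-like cells 7 genes were measured, of which 0 were called at D11, beside 0.821% higher and 0.766% lower of all genes, and 0 at D14, beside 2.9% and 1.98%. In cMono-like cells 8 were measured and 0 called, beside 0.284% higher and 0.625% lower of all genes at D11 and 2.68% and 3.19% at D14. With so few of all genes called, 0 calls among 7 or 8 genes say little about these genes. Ctsd in ncMono-like cells (log2 0.92, 0.66 to 1.20) and Lyz2 in cMono-like cells (fell by 0.97 on the log2 scale, interval -0.997 to -0.948) came nearest at D14. Each was called under some of the other settings. Hemoglobin took 0.0186%, 0.277% and 0.417% of the ncMono-like UMIs in naive, D11 and D14. With monocyte-like cells of over 1% hemoglobin left out, 0 of 54 ratios of the genes moved beyond their counting interval. That filter kept 128, 191 and 601 ncMono-like and 135, 186 and 60 cMono-like cells. Since it removed few cells, the ratios could hardly move, and cells with less hemoglobin stayed in. The part of red cell RNA in the ratios was not tested. Smaller differences beyond counting error went in both directions. In D14 ncMono-like cells Adgre1, Ctsd, Lamp1, Ctsl and Ctsb were above naive and Cd68, Lyz2 and Ctss below. Of these, Ctsl was below the minimum, so it was not among the 7 genes and its ratio was not recomputed under other settings. Its interval began at 1.001-fold. The D11 ncMono-like cells had Adgre1 (1.40-fold, 1.20 to 1.62) and Lamp1 (1.36-fold, 1.20 to 1.55) above and Ctss (0.787-fold, 0.735 to 0.842) and Lyz2 (0.903-fold, 0.874 to 0.933) below, the same sides as at D14. D11 and D14 are set against the same naive cells and so are not independent of each other. In cMono-like cells at D14 Ctsd and Ctsl were above naive, Lyz2, Ctss and Cd68 below, and the intervals of Adgre1, Ctsb and Lamp1 held a ratio of 1.

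**Figure D3:**
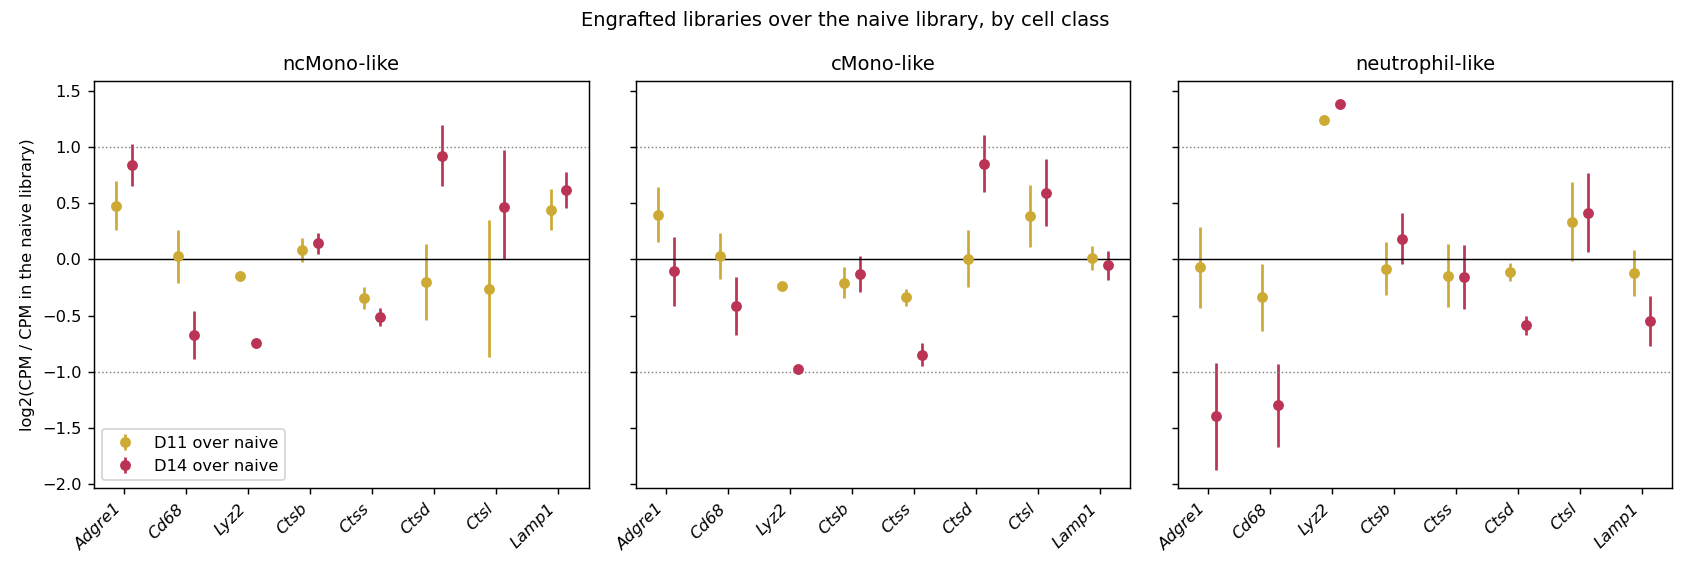
Log2 ratio of the CPM at D11 and D14 to that in the naive library (y axis) for 8 genes (x axis) in ncMono-like, cMono-like and neutrophil-like cells (panels), with exact conditional binomial 95% intervals. Dotted lines mark a 2-fold difference. In both monocyte panels the D14 points of Lyz2, Ctss and Cd68 lie below 0 and that of Ctsd above, while in neutrophil-like cells Lyz2 lies above 1 and Adgre1 and Cd68 below -1 at D14.

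Shares of cells with a UMI depend on depth, so each cell was thinned to 1000 UMIs. After this, 22.7% (15.7 to 30.9), 29.7% (23.4 to 36.7) and 32.7% (29.1 to 36.6) of ncMono-like cells of naive, D11 and D14 had an Adgre1 UMI, and 11.0%, 18.4% and 6.06% of cMono-like cells. The cMono-like order depended on the depth, since at 2000 UMIs the shares were 18.8%, 25.4% and 27.3%, with D14 (4 and then 18 of 66 cells) going from lowest to highest, while the ncMono-like shares kept their order at 33.3%, 39.1% and 51.6%. Without thinning the ncMono-like shares were 57.8%, 73.8% and 84.4%. In T-like cells, which should lack the gene, the thinned share was 0% in the 3 libraries, and in B-like cells 1.10% in naive. Cd68 was found in 22.7%, 22.1% and 11.99% of thinned ncMono-like cells and Lyz2 in 91.4%, 90.3% and 85.1%, against 1.33%, 0% and 4.81% of T-like cells for Lyz2. Lyz2 in thinned neutrophil-like cells went from 49.2% in naive to 69.2% and 82.2%. Ctsd cannot be read as a monocyte signal from shares alone, since 9.50%, 10.6% and 13.5% of T-like cells had a UMI beside 11.7%, 8.72% and 20.3% of ncMono-like cells. No thinned ncMono-like cell had a UMI of Mrc1.

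**Figure D4:**
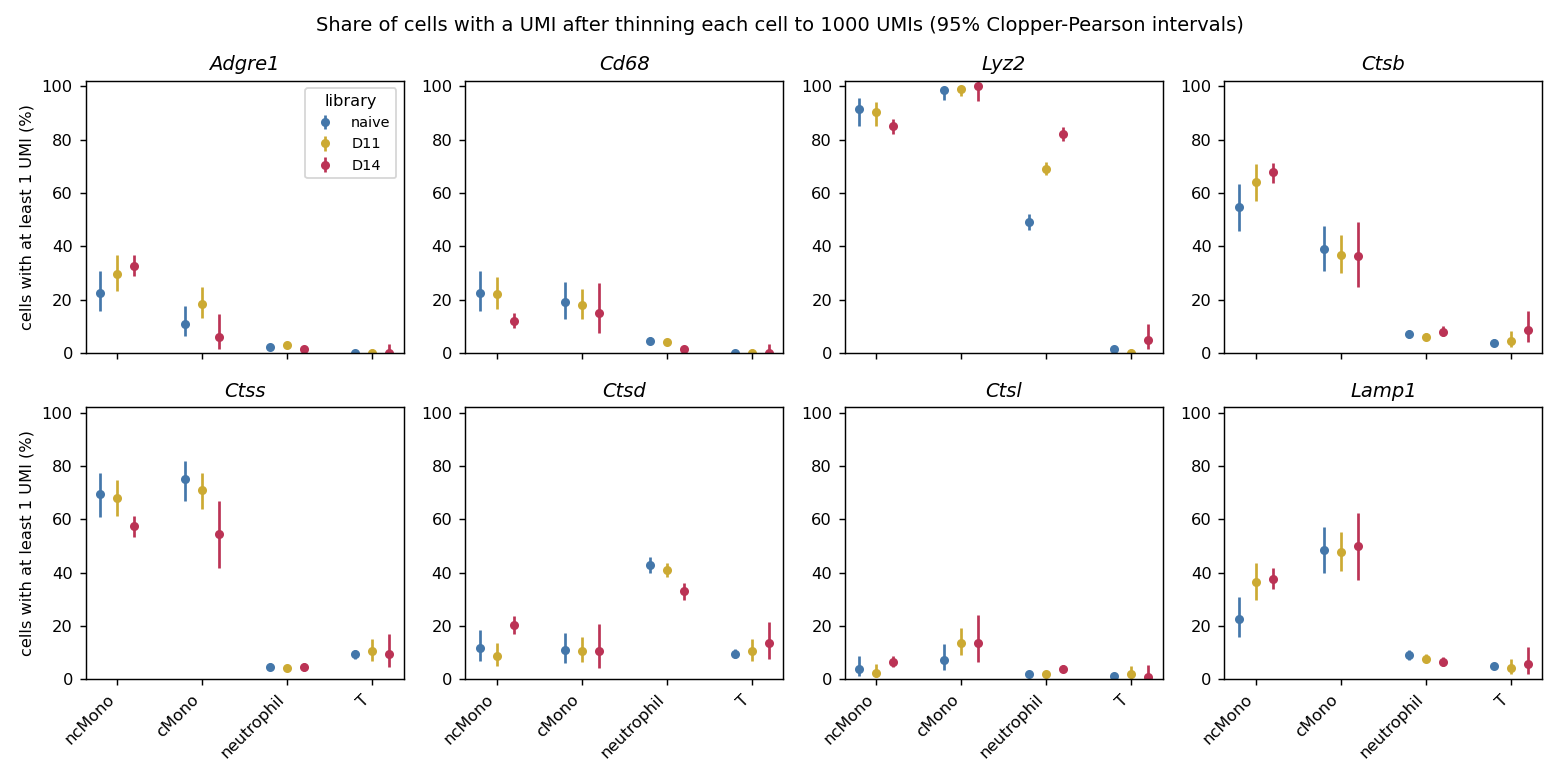
Share of cells with at least 1 UMI (y axis, percent) after each cell was thinned to 1000 UMIs, for 8 genes (panels), 4 cell classes (x axis) and 3 libraries (colour), with Clopper-Pearson 95% intervals. The shares of T-like cells are near 0 for Adgre1 and Cd68 and about as high as the naive monocyte shares for Ctsd.

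Counted together, the 8 genes other than Mrc1 and Gpnmb were found at like numbers in both monocyte classes. A thinned ncMono-like cell had a UMI of 2.99 ± 1.10 of them in naive, 3.22 ± 1.20 at D11 and 3.19 ± 1.17 at D14 (mean and SD over 128, 195 and 617 cells). The cMono-like cells had 3.10 ± 1.04, 3.15 ± 1.13 and 2.86 ± 1.09, and T-like cells 0.305, 0.322 and 0.433. At least 4 of the 8 were found in 37.5%, 40.5% and 38.4% of ncMono-like and 30.9%, 35.3% and 28.8% of cMono-like cells.

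Some barcodes passed both monocyte gates and no other, 44 in naive, 84 at D11 and 83 at D14, and they were left out of the classes. Their levels were taken after the values of the classes had been seen. Lyz2 was between the 2 classes in each library, at 16294, 16263 and 11634 CPM, and so was Ctsb, at 675, 556 and 733 CPM. Adgre1 was at 105, 122 and 136 CPM, against cMono-like levels of 121, 159 and 112 CPM. It was thus below both classes in naive and D11 and between them at D14. In naive the interval (80.0 to 135.6 CPM) overlapped the cMono-like one. At D11 it did not, with 103.5 to 143.5 CPM against 143.8 to 175.8 CPM. Mrc1 had 0, 1 and 3 UMIs there and Gpnmb 0, 0 and 2.

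Other lysosomal genes were read from lists that hold none of the 10 genes. Of 13 other lysosomal proteases and inhibitors, 6 were measured in ncMono-like cells at D14 over naive, with 0 at least 2-fold higher and 1 lower (median log2 0.12, beside 0.02 over all genes), where 2.9% of all genes were called higher and 1.98% lower. At D11 over naive 7 were measured, 1 (Cstb) was higher and 0 lower, and the median was 0.41, beside -0.03 over all genes and 0.821% and 0.766% of them called. Cstb, at 33.2 CPM in naive and 67.9 at D11, passed the minimum only through its D11 level. The 1 lower gene at D14 was Lgmn, which encodes legumain, at 75.1 CPM in naive, 67.3 at D11 and 34.0 at D14. Lgmn in turn passed only through its naive level. Ctsc, which activates granule serine proteases, went from 131 to 136 and 190 CPM. Against cMono-like cells at D14, 1 of 6 measured was at least 2-fold higher and 3 lower, beside 13.1% and 9.78% of all genes. Ctsa was at 194, 259 and 227 CPM and Ctsz, a carboxypeptidase, at 231, 345 and 293 CPM.

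Of 25 other lysosomal hydrolases 14 were measured, with 2 at least 2-fold higher, 1 lower and a median of 0.09 at D14 over naive, beside 2.9% and 1.98% of all genes called. The 2 were both acid phosphatases. Acp5, the tartrate-resistant acid phosphatase known from osteoclasts, was at 12.7 CPM in naive, 43.3 at D11 and 88.0 at D14 in ncMono-like cells (log2 2.80, 2.01 to 3.71) and at 3.48, 4.48 and 4.41 CPM in cMono-like cells. Acp5 was not particular to monocytes, since its T-like level exceeded that of both monocyte classes (naive 106 CPM, D11 96.2, D14 113). Acp2 in ncMono-like cells was at 30.2, 53.8 and 89.8 CPM (log2 1.57, 1.05 to 2.14). Arsb, a sulfatase, was the 1 lower gene, at 189, 143 and 93.9 CPM. Lipa, the lysosomal acid lipase, was at 115, 161 and 169 CPM, Fuca1 at 151, 113 and 90.3 and Psap, the precursor of saposins, at 1442, 1420.5 and 1018.

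Of 25 lysosomal membrane and proton pump genes 18 were measured and 0 were called in either direction (median 0.12), which at 2.9% and 1.98% of all genes called says little about the list. Among the 18 the 3 highest ratios of D14 to naive were those of Atp6v1b2, a subunit of the proton pump, at 174, 163 and 283 CPM, Grn, which encodes progranulin, at 88.8, 159 and 138, and Atp6v0e at 191, 283 and 254. Scarb2, Atp6v1h and Atp6ap2 were lower at D14 than in naive, by 0.51, 0.15 and 0.14 on the log2 scale, and the intervals of the last 2 held 0. Of 14 regulators of lysosomes and autophagy 11 were measured and 0 called (median 0.05), beside the same shares of all genes, which again says little about the list. Mitf, a relative of Tfeb, was at 95.6, 65.5 and 164 CPM, Tfeb itself at 144, 137 and 125. Gabarap was at 219, 314 and 268 CPM, Map1lc3b at 172, 201 and 185, Atg7 at 178, 143 and 139, and Becn1 at 72.2, 69.0 and 67.6.

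Of 23 further genes that mark tissue macrophages, 14 had UMIs in ncMono-like cells and 9 had none in any library. No barcode of the 12792 kept in the 3 libraries had UMIs of at least 3 of 9 macrophage markers (C1qa, C1qb, C1qc, Vsig4, Cd5l, Mertk, Timd4, Cd163, Marco). With the libraries pooled this allows a share of up to 0.0235%. Summed over the ncMono-like cells these 9 genes had 3, 0 and 110 UMIs, or 2.93, 0 and 18.0 CPM, and in cMono-like cells 3.48, 5.29 and 10.3 CPM. The complement genes C1qa, C1qb and C1qc, with Timd4, Cd5l and Cd163, were at 0 UMIs in ncMono-like cells of the 3 libraries. Over all barcodes of the series, C1qa, C1qb and C1qc together had 0 UMIs in naive and D11 and at most 2 each at D14.

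Of the same 23 tissue macrophage genes, only 2 were measured in ncMono-like cells at D14 over naive, with 0 higher and 1 lower, beside 2.9% and 1.98% of all genes. Csf1r, the receptor for the macrophage growth factor, was at 565, 678 and 795 CPM in ncMono-like and 308, 265 and 208 CPM in cMono-like cells. Apoe, a lipid carrier, was the 1 lower gene, at 2112, 651 and 387 CPM in ncMono-like and 1889, 594 and 182 CPM in cMono-like cells. Below the minimum, and picked out after the values were seen, Spic and Marco were above naive while Msr1 and Fcgr1 were below. Spic, a transcription factor of red pulp macrophages, had an ncMono-like level of 10.7, 17.6 and 58.2 CPM, with a UMI in 7.03%, 11.8% and 26.9% of cells, and one of no more than 2.94 CPM in cMono-like cells. Marco, a scavenger receptor, had 95 UMIs in 11 of 617 ncMono-like cells at D14 and 0 in naive and D11. Msr1 was at 58.5, 29.8 and 10.5 CPM and Fcgr1 at 42.9, 16.4 and 3.93 CPM.

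**Figure D5:**
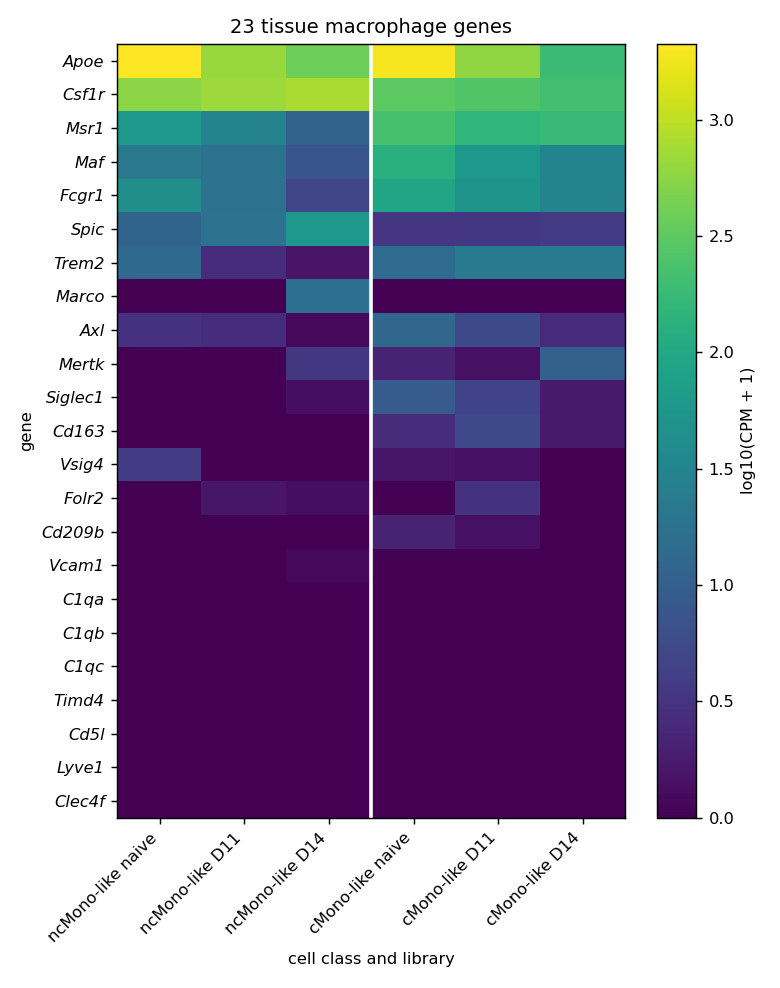
Level of 23 tissue macrophage genes (rows) in ncMono-like and cMono-like cells of each library (columns), coloured by log10(CPM + 1). Only Apoe and Csf1r are bright throughout, Spic and Marco are brightest in D14 ncMono-like cells, and the C1q genes are at 0.

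For each of the 8 detected genes, the 3 genes with the most similar level were sought over the 21 sums of class and library with at least 50 cells, among 6852 other genes. The sums share libraries and cell lineages, so the correlations (Pearson r of log2(CPM + 1)) describe these sums and nothing more. Adgre1 was most like Mpeg1 (r = 0.96), Csf1r and Clec4a3 (0.96 each), and Cd68 like Gpr35 (0.97), Apoc2 and Gm36161 (0.95 each). Lyz2 was most like Ifitm3 (0.99), Cebpa and Gpr141 (0.98 each). Ctsb was nearest to Adgre4, Tnfrsf11a (0.93 each) and Nupr1 (0.92), of which Adgre4 is a gate marker of ncMono-like cells. Ctsd was most like Selplg, Arrb2 (0.95 each) and Rgs3 (0.94). Ctsl was most like Parp12 (0.95), Rnpep and Idh1 (0.94 each), Ctss like Mob3b (0.97), Susd3 and Inpp5f (0.95 each), and Lamp1 like Xbp1, Mob3b and Tcirg1 (0.97 each). Tcirg1 encodes a subunit of the lysosomal proton pump.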

How the data were processed

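PB leukocytes of naive, D11 and D14 mice were profiled by scRNA-Seq (10x Genomics 3′ v3). The authors counted reads with Cell Ranger and deposited filtered matrices of raw UMI counts per gene and barcode. The matrix headers name version 5.0.1 and the submitters' processing notes version 7.1.0 with build mm10, and whether intronic reads were counted is not given in the sources used here. The 10 genes, the gates and the other lists were chosen with earlier results of these data known. Other gates classed neutrophil-like cells (at least 2 of 6 markers and 3% of UMIs from S100a8 and S100a9), B-like, proB-like, T-like, NK-like and erythroid-like cells (at least 20% hemoglobin UMIs). UMIs were summed per class and library over classes of at least 50 cells, so that B-like and NK-like cells at D14 have no level. CPM have exact Poisson, ratios exact conditional binomial and shares Clopper-Pearson intervals (scipy 1.17.1, numpy 2.4.6), and the limit for 0 is 3 counts. The ratios and gates were tested on counts simulated from class profiles with counting error only. Variation between cells or libraries was not simulated. Named genes were all 10, the up to 3 highest and 3 lowest D14 over naive ratios of each list in ncMono-like cells, the check genes, and the 3 most similar genes. Doublets were not removed, and Scrublet (scanpy 1.11.5) and TMM factors (edgeR 4.0.16) were alternatives. Positions come from GENCODE vM21. A few genes of the wider lists are not reported here.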

Additional observations from a re-analysis of the deposited data

Results flagged for a closer look

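The point estimates of Ctsb lay above naive in ncMono-like and below naive in cMono-like cells. Its log2 ratio over naive was 0.082 at D11 (-0.02 to 0.19) and 0.14 at D14 (0.05 to 0.23) in ncMono-like cells, and -0.21 at D11 (-0.34 to -0.07) and -0.13 at D14 (-0.29 to 0.03) in cMono-like cells. With 1 library per condition the difference between the classes was not tested, and 2 of the 4 intervals hold 0, 1 at each time. Under the other settings the cMono-like value at D14 ran from -0.25 to 0.10, so its sign depended on the setting.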

How the results depend on the processing

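Each of 54 ratios of the 8 measured genes was recomputed under 12 other settings, and of these 648 values 560 moved by less than their counting interval, and 88 moved by more. The sign differed in 21 values, each of a ratio whose interval held 0. At 2000 in place of 1000 UMIs 22 of 24 shares of ncMono-like cells moved beyond their interval. The count of genes at least 2-fold higher in ncMono-like than cMono-like cells went from 2 to 1 in naive, Adgre1 being lost, under a filter of 500 genes and 5% mitochondrial UMIs, with 1 more marker per gate, with mixed barcodes kept, with CPM without ribosomal, mitochondrial and hemoglobin genes, with TMM factors, with 10 CPM added, and with both-gate barcodes assigned by marker UMIs, a setting chosen after seeing the data. At D11 it was 1 with cells thinned to 2000 UMIs and with both-gate barcodes assigned. On the lower side in naive, Lamp1 was added with TMM factors and with CPM without ribosomal, mitochondrial and hemoglobin genes. With the mean of per-cell CPM, Lamp1 was called there in place of Ctsl. At D14 over naive, 1 gene, Ctsd, was at least 2-fold higher in ncMono-like cells with 1 fewer marker, with Scrublet doublets removed and with TMM factors. In cMono-like cells 1 gene, Lyz2, was at least 2-fold lower with all barcodes, 1 more marker, 1 fewer marker, mixed barcodes kept and TMM factors. The share of all genes called at D11 in ncMono-like cells was 2.75% higher and 2.59% lower when thinned, 1.29% higher with TMM factors, and 1.29% higher and 1.78% lower with a minimum of 20 CPM. At D14 3.29% were lower there when thinned. In cMono-like cells at D11 it was 1.86% higher and 1.98% lower when thinned, 0.545% higher with 1 fewer marker, 0.526% with a minimum of 20 CPM and 0.170% with 10 CPM added. At D14 it was 6.83% higher and 6.69% lower when thinned and 4.07% higher with 1 fewer marker, the last from 27 cells. TMM factors moved the naive ratios of the monocyte classes by -0.19 (log2). The cause of these changes was not tested. No paired analysis was possible because each condition is 1 library. For the same reason no library could be left out.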
